A study of Homo sapiens with 18 samples.

Results

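Human acute myeloid leukaemia (AML) cell lines SKNO-1 and Molm-14 were compared in their untreated state. The comparison used 6 of the 18 RNA-seq libraries of the series, 3 of each line, all from cultures given the vehicle DMSO for 24 h. Genes with at least 1 CPM (counts per 1 000 000 reads of the scaled library) in 3 or more of these 6 libraries were tested, which kept 14793 of 40184 gene IDs. The other libraries are the same lines with 500 nM RMC-4550, an allosteric inhibitor of the phosphatase SHP2, for 24 h, and a further line, MV4-11. Molm-14 carries FLT3-ITD per the labels, a tandem duplication inside the FLT3 receptor kinase. MV4-11 is labelled FLT3-ITD too. SKNO-1 carries KIT N822K, a point mutation of the KIT receptor kinase. SKNO-1 was grown with 10 ng/mL GM-CSF, and Molm-14 and MV4-11 were grown without it. In the 6 libraries compared, each genotype is represented by 1 line. Genotype, line and growth factor therefore cannot be told apart in any difference between these libraries. The 3 libraries of a group are labelled as biological replicates, and nothing in the labels says how the cultures were separated, so the p-values measure the spread between these cultures.

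As background, SKNO-1 is known for the t(8;21) translocation, which joins RUNX1, a DNA-binding subunit of the core-binding factor of blood stem cells, to the corepressor gene RUNX1T1. Molm-14 is known for a KMT2A fusion, and KMT2A fusions hold open the HOXA genes and MEIS1 through DOT1L and menin. KIT and FLT3 are receptor tyrosine kinases of early blood cells that signal through RAS and MAPK, PI3K and STAT5, and GM-CSF signals through the shared receptor chain CSF2RB and JAK2 to STAT5. The translocations are not given in the labels.

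The 6 libraries held 18950726 to 19959917 reads, with 5.19% to 6.06% of reads in mitochondrial genes. Replicates correlated at 0.992 to 0.994 (Pearson, across genes). The scaling factors in the deposited values were 0.910 to 0.923 in Molm-14 and 1.08 to 1.09 in SKNO-1. Reads carry no molecular identifiers, so intervals on read ratios cover counting error only. In these bulk samples, fewer cells of a type and less RNA per cell cannot be told apart.

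The genes that mark the lines were looked at first. RUNX1T1 was at 13.2, 13.9 and 14.4 CPM in the 3 SKNO-1 libraries and had no read in any Molm-14 library, at least 81.8-fold higher in SKNO-1 (against a floor of 3 reads per library). KIT was at 32.2, 33.4 and 31.4 CPM in SKNO-1 and had 6, 2 and 3 reads in the Molm-14 libraries. The ratio for KIT was 157 (95% interval 87.3 to 314), so the receptor named in the SKNO-1 label was close to unread in Molm-14. FLT3 was read in both lines, at 337, 326 and 321 CPM in SKNO-1 and 621, 613 and 633 CPM in Molm-14. The FLT3 groups did not overlap, and the difference of 1.90-fold was below the 2-fold limit for a call (log2 difference of -0.92, SE 0.034, adjusted p = 5.1e-10).

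Some genes went against what is known of t(8;21) leukaemia. POU4F1, a transcription factor known for its high level in that disease, was at 0.774 ± 0.198 CPM (SD, n = 3) in SKNO-1 and 13.2 ± 0.518 CPM in Molm-14. The B cell factor PAX5 was at 0.525 ± 0.188 CPM in SKNO-1 and 15.8 ± 1.09 CPM in Molm-14. CD34 had 2 reads or fewer in every one of the 6 libraries. A further check set the 3 lines side by side with DMSO. Of the 9091 genes with at least 10 CPM in every SKNO-1 library, 98 had 3 reads or fewer in every Molm-14 library and 8 in every MV4-11 library. Those 8 were ITM2A, RUNX1T1, AEBP1, ZNF141, MCTP2, CD96, LONRF2 and CA8, all of them named because the count is small. Of the 9126 genes with at least 10 CPM in every Molm-14 library, 37 had 3 reads or fewer in every SKNO-1 library and 0 in every MV4-11 library. Whether each label stands for RNA of 1 line was not tested, and the comparison below is between the libraries as labelled.

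A gene was called where limma's moderated test gave an adjusted p under 0.05 (Benjamini-Hochberg over the 14793 genes, two-sided) and the difference was at least 2-fold. With DMSO, 2661 genes (18%) were called higher in SKNO-1 and 2296 (15.5%) lower. At any fold, 12273 genes (83%) passed the adjusted p. The median SD between replicates was 0.085 in SKNO-1 and 0.075 in Molm-14 on the log2 scale. With a mean of at least 5 CPM required, 1244 genes were called higher and 1506 lower. A gene read in 1 line only entered the test through that line and had to differ, so counts over the tested members of a list are descriptions and are read beside 18% and 15.5%. The median log2 difference (SKNO-1 minus Molm-14) over all genes tested was -0.03.

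**Figure D1:**
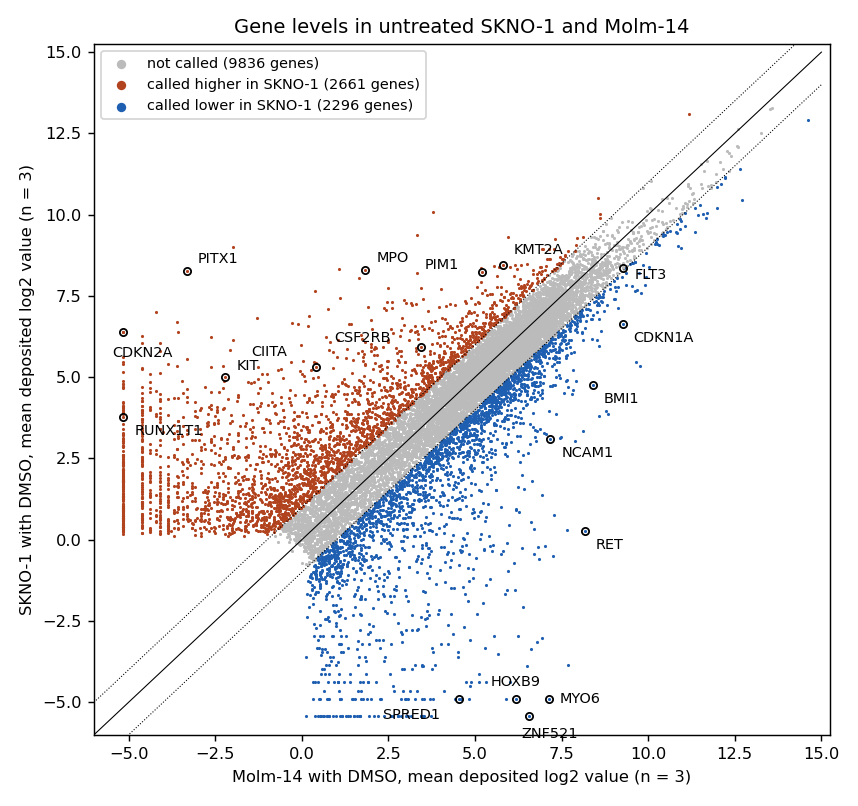
Mean deposited log2 value of each of the 14793 tested genes in Molm-14 (x axis) and SKNO-1 (y axis) with DMSO, 3 libraries each. The solid line marks equal levels, the dotted lines a 2-fold difference, and circles mark named genes. Columns and rows of points at the left and lower edges are genes with 0 or a few reads in 1 line.

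Genes read in only 1 line of this pair were counted next. At least 20 CPM in every SKNO-1 library and 3 reads or fewer in every Molm-14 library were found for 36 genes (0.243% of those tested). The reverse held for 18 genes (0.122%). Both sets describe this pair of lines and not the series. In MV4-11 with DMSO, 12 of the 36 and 6 of the 18 had at least 20 CPM in every library. There, 0 of the 36 and 0 of the 18 had 3 reads or fewer in every library. The counts over the 3 lines above largely fixed that result in advance. Some of the 36 were low in MV4-11, such as ANPEP at 0.484 to 0.958 CPM, lowest to highest library. PITX1, a homeobox factor of hindlimb and pituitary development, was at 288, 311 and 334 CPM in SKNO-1 and had 2, 1 and 1 reads in the Molm-14 libraries. CDKN2A, which encodes the cell cycle inhibitors p16INK4a and p14ARF, was at 81.6, 81.2 and 90.97 CPM in SKNO-1 and had no read in Molm-14, at least 501-fold higher. Every SKNO-1 library held at least 1769 reads of either gene against 2 or fewer in any Molm-14 library. In MV4-11 with DMSO, PITX1 was at 165 to 221 CPM and CDKN2A at 47.97 to 90.1 CPM, lowest to highest library. The neighbour CDKN2B, encoding p15INK4b, had a mean of 1.30 CPM in SKNO-1 and no read in Molm-14. MTAP, the next gene of that locus, was read in both lines, at 30.98 ± 1.33 and 13.5 ± 1.37 CPM (log2 difference of 1.20, SE 0.079, adjusted p = 6.6e-08).

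Other genes read in SKNO-1 and not in Molm-14 included SERPINB6, an intracellular protease inhibitor, at 103 CPM with 2, 0 and 2 reads in Molm-14. IGSF10 (immunoglobulin superfamily member, 83.3 CPM), ACCS (48.9 CPM), NIPSNAP1 (a mitochondrial protein, 44.6 CPM), NHLRC3 (42.002 CPM) and SIGLEC12 (a sialic acid-binding lectin, 35.6 CPM) had no read in any Molm-14 library. UNC5C, a netrin receptor, was at 71.5, 66.3 and 62.5 CPM in SKNO-1 and had 0, 0 and 1 reads in Molm-14. TRGC1 and TRGC2, the near-identical constant segments of the T cell receptor gamma chain, had 127 and 77.6 CPM in SKNO-1, and how reads were divided between the pair is uncertain. In MV4-11, SERPINB6 was at 45.2 to 46.7 CPM, UNC5C at 24.4 to 45.5 CPM and ACCS at 19.8 to 28.1 CPM, whereas IGSF10 was at 0.12 to 0.256 CPM, lowest to highest library. PROSER1, which was singled out after its values were seen because it starts head to head with NHLRC3, was at 68.9, 66.7 and 63.9 CPM in SKNO-1 and had 1, 1 and 0 reads in Molm-14.

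Of the 18 genes read in Molm-14 and not in SKNO-1, MYO6, an actin motor of membrane traffic, was at 142, 140.0 and 141 CPM in Molm-14 and had 0, 1 and 0 reads in SKNO-1. ZNF521, a zinc finger factor of immature blood cells that was among the 17 genes of the myeloid factor list, was at 91.5, 96.2 and 95.3 CPM in Molm-14 with no read in SKNO-1, at least 678-fold lower in SKNO-1. RUBCNL, an autophagy regulator, was at 121 CPM with 3, 3 and 1 reads in SKNO-1. DYSF, the membrane repair protein dysferlin, was at 98.2 CPM with 1, 2 and 2 reads. CCDC144NL-AS1, an antisense transcript whose reads cannot be told from those of its partner without stated strand counting, was at 91.3 CPM. For 3 more genes with wide differences, 1 or 2 SKNO-1 libraries were over the limit of 3 reads. ADGRL2, an adhesion receptor, was at 202, 204 and 207 CPM in Molm-14 and had 4, 1 and 0 reads in SKNO-1. NR2F1, a nuclear receptor of neural development, was at 110.0 CPM in Molm-14 with 0, 4 and 6 reads in SKNO-1. RADX, a replication fork protein, was at 65.03 CPM in Molm-14 with 0, 4 and 0 reads in SKNO-1. MV4-11 also had reads of these genes, with MYO6 at 72.2 to 79.6 CPM, ZNF521 at 21.95 to 52.9 CPM, RUBCNL at 69.7 to 87.2 CPM and DYSF at 42.1 to 59.2 CPM.

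Promoters of 4 of these genes are printed, and the 4 were picked after their values were seen. Each went from at most 2 reads in any library of 1 line to a mean of over 40 CPM in the other. Other genes that are not printed met this condition too, among them CDKN2A, IGSF10 and DYSF. Each is the window from 250 bases before to 50 bases after the RefSeq gene start (GRCh38.p14), written 5′ to 3′ in the direction of the gene, with every CpG dinucleotide in capitals. PITX1 is the window chr5:135034179-135034478 on the minus strand, NIPSNAP1 chr22:29581064-29581363 on the minus strand, NHLRC3 chr13:39038061-39038360 on the plus strand and MYO6 chr6:75748989-75749288 on the plus strand.
PITX1: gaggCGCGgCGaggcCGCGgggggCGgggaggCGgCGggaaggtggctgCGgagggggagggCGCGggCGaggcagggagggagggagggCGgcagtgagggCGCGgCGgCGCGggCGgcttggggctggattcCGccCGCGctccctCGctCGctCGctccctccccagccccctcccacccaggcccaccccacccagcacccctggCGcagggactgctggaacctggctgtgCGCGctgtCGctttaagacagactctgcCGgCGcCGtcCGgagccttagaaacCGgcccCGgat
NIPSNAP1: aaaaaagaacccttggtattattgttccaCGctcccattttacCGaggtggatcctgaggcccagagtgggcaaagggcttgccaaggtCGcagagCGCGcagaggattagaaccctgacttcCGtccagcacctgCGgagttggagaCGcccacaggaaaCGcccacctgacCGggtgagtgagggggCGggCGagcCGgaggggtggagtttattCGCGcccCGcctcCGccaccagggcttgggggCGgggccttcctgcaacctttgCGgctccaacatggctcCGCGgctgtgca
NHLRC3: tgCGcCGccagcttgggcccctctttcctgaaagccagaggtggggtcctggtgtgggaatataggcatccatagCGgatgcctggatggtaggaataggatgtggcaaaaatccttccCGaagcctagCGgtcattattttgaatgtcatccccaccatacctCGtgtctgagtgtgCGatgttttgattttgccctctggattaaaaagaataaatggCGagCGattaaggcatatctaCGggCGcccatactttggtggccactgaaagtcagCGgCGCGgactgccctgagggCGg
MYO6: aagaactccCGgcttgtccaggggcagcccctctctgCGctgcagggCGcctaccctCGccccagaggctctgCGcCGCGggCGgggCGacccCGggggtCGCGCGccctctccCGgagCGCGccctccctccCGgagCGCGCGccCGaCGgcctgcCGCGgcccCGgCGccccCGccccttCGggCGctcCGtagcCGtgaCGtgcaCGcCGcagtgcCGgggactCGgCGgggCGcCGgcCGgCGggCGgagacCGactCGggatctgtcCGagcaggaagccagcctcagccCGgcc

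The window of NHLRC3 shares 279 bases with the window of PROSER1 (chr13:39038040-39038339, minus strand), and both genes were read in SKNO-1, with 1 read or fewer in each Molm-14 library. Windows were matched by symbol for 10461 of the 14793 genes tested. The median number of CpG dinucleotides was 26 over all of them, 21 in genes called higher in SKNO-1 and 27 in genes called lower. It was 22 in the 25 matched genes read in SKNO-1 only and 33 in the 13 matched genes read in Molm-14 only. The core of the RUNX binding motif (TGTGGT, either strand) lay in 9.44% of all windows, 11.0% of those called higher and 9.15% of those called lower. It lay in 1 of the 25 and 2 of the 13 windows of the genes read in 1 line only. These are counts of letters in a short window and were not tested.

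The t(8;21) list held 14 genes, 13 of them tested. It was split, with 8 called higher and 5 lower in SKNO-1, and CD34 was the gene that did not pass the filter. ROBO1, an axon guidance receptor, was at 18.1, 17.5 and 16.7 CPM in SKNO-1 with no read in Molm-14, at least 103-fold higher. PRAME, a tumour antigen, was at 43.97, 43.4 and 42.8 CPM in SKNO-1 and 1.83, 1.10 and 1.11 CPM in Molm-14 (log2 difference of 5.02, SE 0.17, adjusted p = 2.9e-10). TRH, the thyrotropin-releasing hormone precursor, was at 4.52, 4.86 and 5.09 CPM with no read in Molm-14. CD79A, a B cell receptor chain, was 4.28-fold higher in SKNO-1. Against these, NCAM1, which encodes the adhesion protein CD56, was at 8.12, 8.22 and 9.37 CPM in SKNO-1 and 143, 148 and 143 CPM in Molm-14 (log2 difference of -4.08, SE 0.061, adjusted p = 8.7e-13). CAV1, the caveola protein, was at 0.402 ± 0.141 CPM in SKNO-1 and 17.6 ± 1.89 CPM in Molm-14, a ratio of 43.9 (95% interval 29.8 to 67.6) towards Molm-14. POU4F1, PAX5 and IGFBP7 were the other members called lower.

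Of the 20 genes listed as KMT2A-fusion targets, all of which were tested, 1 was called higher, 9 lower and 10 were not called in SKNO-1, with a median log2 difference of -0.90. The 9 called lower were the 8 HOXA genes of the list and SKIDA1. The HOXA genes, which encode the homeobox factors of blood stem cells, divided by position. HOXA3 to HOXA7 were below 0.6 CPM in every SKNO-1 library. HOXA5 was at 18.6, 20.5 and 20.9 CPM in Molm-14 and 0.369, 0.367 and 0.283 CPM in SKNO-1, and HOXA3 at 31.5, 30.7 and 30.5 and 0.461, 0.275 and 0.565 CPM. HOXA9, HOXA10 and HOXA11 were read in both lines. HOXA9 was at 52.5, 54.8 and 53.9 CPM in SKNO-1 and 134, 136 and 141 CPM in Molm-14, 2.55-fold lower in SKNO-1 (log2 difference of -1.35, SE 0.039, adjusted p = 7.0e-11). HOXA10 was 2.12-fold and HOXA11 4.56-fold lower.

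The cofactors of the HOXA proteins were not called. MEIS1 was at 119.8, 119 and 118 CPM in SKNO-1 and 93.3, 90.3 and 88.6 CPM in Molm-14, 1.31-fold higher in SKNO-1, and PBX3 was 1.56-fold lower. MEF2C, MYB, ZEB2, RUNX2, CDK6, JMJD1C, IGF2BP2 and FLT3 also stayed under 2-fold, from -0.92 for FLT3 to 0.84 for RUNX2 on the log2 scale. SKIDA1 was at 0.911 ± 0.136 CPM in SKNO-1 and 60.2 ± 0.595 CPM in Molm-14. LAMP5, a lysosomal membrane protein of plasmacytoid dendritic cells, was the member called higher, at 209, 217 and 225 CPM in SKNO-1 and 5.39, 5.19 and 6.41 CPM in Molm-14 (log2 difference of 5.26, SE 0.075, adjusted p = 7.0e-13).

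The HOXB cluster was read at opposite ends in the lines. HOXB3 (20.2 against 4.63 CPM) and HOXB4 (15.9, 14.4 and 13.98 CPM in SKNO-1 and 0.667, 0.461 and 0.613 CPM in Molm-14) were higher in SKNO-1. HOXB9 was at 71.5, 73.5 and 72.6 CPM in Molm-14 and had 0, 1 and 0 reads in SKNO-1, and HOXB8 was at 6.34 CPM with 0, 2 and 0 reads. The other 6 of the 10 listed genes were not tested.

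Among 18 genes for the core-binding factor, fusion partners and their cofactors, 2 were called higher, 1 lower and 15 were not called. The median was -0.02 and became 0.02 under median-ratio scaling and 0.04 under quantile normalization. RUNX3, the RUNX factor of lymphoid and mature myeloid cells, was at 261, 282 and 279.6 CPM in SKNO-1 and 50.8, 47.2 and 50.6 CPM in Molm-14 (log2 difference of 2.47, SE 0.044, adjusted p = 2.6e-12). KMT2A itself was at 377, 347 and 335 CPM in SKNO-1 and 53.5, 55.2 and 58.05 CPM in Molm-14, 6.35-fold higher in SKNO-1 (log2 difference of 2.67, SE 0.049, adjusted p = 2.8e-12). HDAC2, a histone deacetylase, was 2.13-fold lower in SKNO-1, and limma's test against a 2-fold threshold gave it an adjusted p = 0.054. RUNX1 was 1.25-fold higher and its partner CBFB 1.54-fold lower, both under 2-fold. MLLT3, MEN1 and DOT1L differed by -0.35, 0.62 and -0.79 on the log2 scale.

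**Figure D2:**
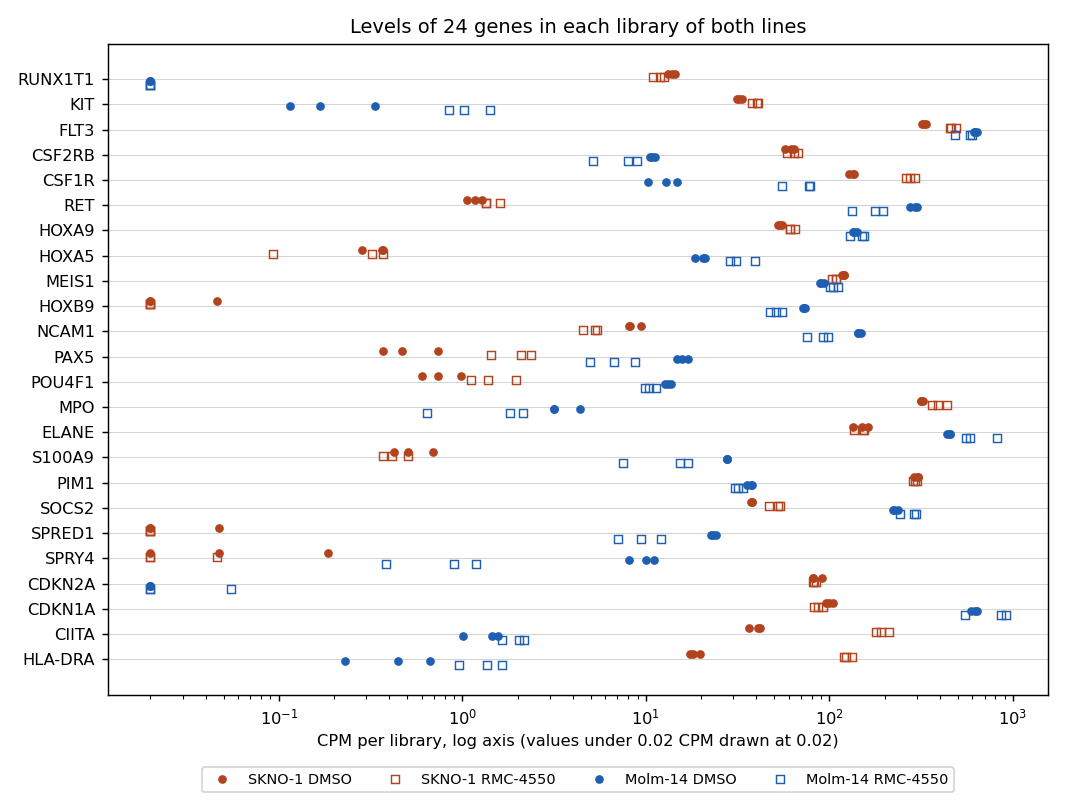
CPM of 24 genes in each library (log x axis), with filled circles for DMSO and open squares for RMC-4550, SKNO-1 in red and Molm-14 in blue. Points drawn at 0.02 had a lower CPM or no read. FLT3, MEIS1, HOXA9 and PIM1 were read in both lines, with PIM1 the widest apart of these (8.08-fold with DMSO). RUNX1T1, HOXB9, SPRED1 and CDKN2A differed by read against almost unread.

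Receptor tyrosine kinases differed in both directions. Of 24 listed, 14 were tested, 6 were called higher and 4 lower in SKNO-1. Besides KIT, the receptors called higher were CSF1R, AXL, MERTK, PDGFRB and LTK. CSF1R, the receptor for macrophage colony-stimulating factor, was at 128, 136 and 134 CPM in SKNO-1 and 10.2, 12.9 and 14.7 CPM in Molm-14 (log2 difference of 3.41, SE 0.1, adjusted p = 1.1e-10). MERTK, a receptor for apoptotic cells, was at 3.69, 3.63 and 3.86 CPM in SKNO-1 and had 0, 2 and 0 reads in Molm-14. RET, the receptor for GDNF family ligands, was at 274, 294 and 298 CPM in Molm-14 and 1.06, 1.29 and 1.18 CPM in SKNO-1 (log2 difference of -7.92, SE 0.08, adjusted p = 8.9e-14). IGF1R, the insulin-like growth factor receptor, was 9.03-fold lower in SKNO-1, at 15.96, 16.1 and 15.02 CPM in SKNO-1 and 139, 139.8 and 146 CPM in Molm-14. EPHB4 (8.12-fold) and FGFR1 (5.37-fold) were also lower. INSR, TYRO3 and DDR2 were not called, and the other 10, among them MET, KDR and PDGFRA, did not pass the filter on low values.

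Of 24 cytokine receptor genes, 20 were tested, 6 were called higher and 1 lower. CSF2RA, the alpha chain of the GM-CSF receptor, IL3RA and CRLF2 were not analysed here. CSF2RB, the signalling chain of the GM-CSF, IL-3 and IL-5 receptors, was at 57.4, 64.02 and 61.4 CPM in SKNO-1 and 10.6, 11.2 and 10.8 CPM in Molm-14 (log2 difference of 2.48, SE 0.06, adjusted p = 2.0e-11). IL2RA was at 27.3, 24.9 and 26.5 CPM in SKNO-1 with no read in Molm-14, at least 155-fold higher, and its partner IL2RG was at 12.7 ± 1.79 against 0.693 ± 0.392 CPM. TNFRSF1B, a TNF receptor, was 2.63-fold higher. IL5RA and IL7R were higher at low levels. IL6R was the member called lower (2.06-fold). CSF3R, the G-CSF receptor, was at 195 ± 6.70 and 246 ± 3.21 CPM and was not called, and neither were the interferon gamma receptor chains.

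Of 15 STAT5 output genes, all tested, 4 were called higher, 2 lower and 9 were not called, shares near those of all genes (18% and 15.5%). PIM1, a survival kinase, was at 289, 303 and 303 CPM in SKNO-1 and 37.5, 37.8 and 35.5 CPM in Molm-14 (log2 difference of 3.01, SE 0.04, adjusted p = 4.6e-13). PIM2 was 2.32-fold and SOCS3 3.21-fold higher, and ID1 5.65-fold higher. SOCS2, a feedback inhibitor that is also a known FLT3-ITD output gene, was at 37.8, 37.6 and 37.2 CPM in SKNO-1 and 226, 222 and 235 CPM in Molm-14 (log2 difference of -2.60, SE 0.037, adjusted p = 7.0e-13). BCL6, a repressor that STAT5 lowers, was 6.50-fold lower in SKNO-1. CISH, a feedback inhibitor of the same family as SOCS2, was at 107 ± 4.16 and 58.5 ± 0.886 CPM, 1.82-fold higher and below the limit for a call. STAT5A, STAT5B and JAK2 differed by 0.46, -0.48 and 0.20 on the log2 scale.

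Of 20 MAPK output and feedback genes, all tested, 4 were called higher, 6 lower and 10 were not called, with a median of -0.67. Members called lower in SKNO-1 were feedback inhibitors, ETS factors and a cyclin. SPRED1, which blocks RAS through neurofibromin, was at 24.003, 22.5 and 23.3 CPM in Molm-14 and had 0, 0 and 1 reads in SKNO-1. SPRY4, a Sprouty inhibitor of receptor signalling, was at 10.001, 11.1 and 8.13 CPM in Molm-14 and had 4, 0 and 1 reads in SKNO-1, and SPRY2 was 7.93-fold lower. ETV4 (11.02-fold), ETV1 (5.40-fold) and CCND1, which encodes cyclin D1 (12.8-fold), were the others. Called higher were FOS, at 342, 366 and 360.1 CPM in SKNO-1 and 165, 171 and 179 CPM in Molm-14, and PHLDA1, DUSP4 and EGR3. EGR1, an immediate early factor, was at 84.5, 96.1 and 89.2 CPM in SKNO-1 and 85.2, 96.4 and 92.3 CPM in Molm-14, and its groups overlapped. DUSP6, the ERK phosphatase, was 1.55-fold higher and SPRED2 1.19-fold lower, neither of them called.

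**Figure D3:**
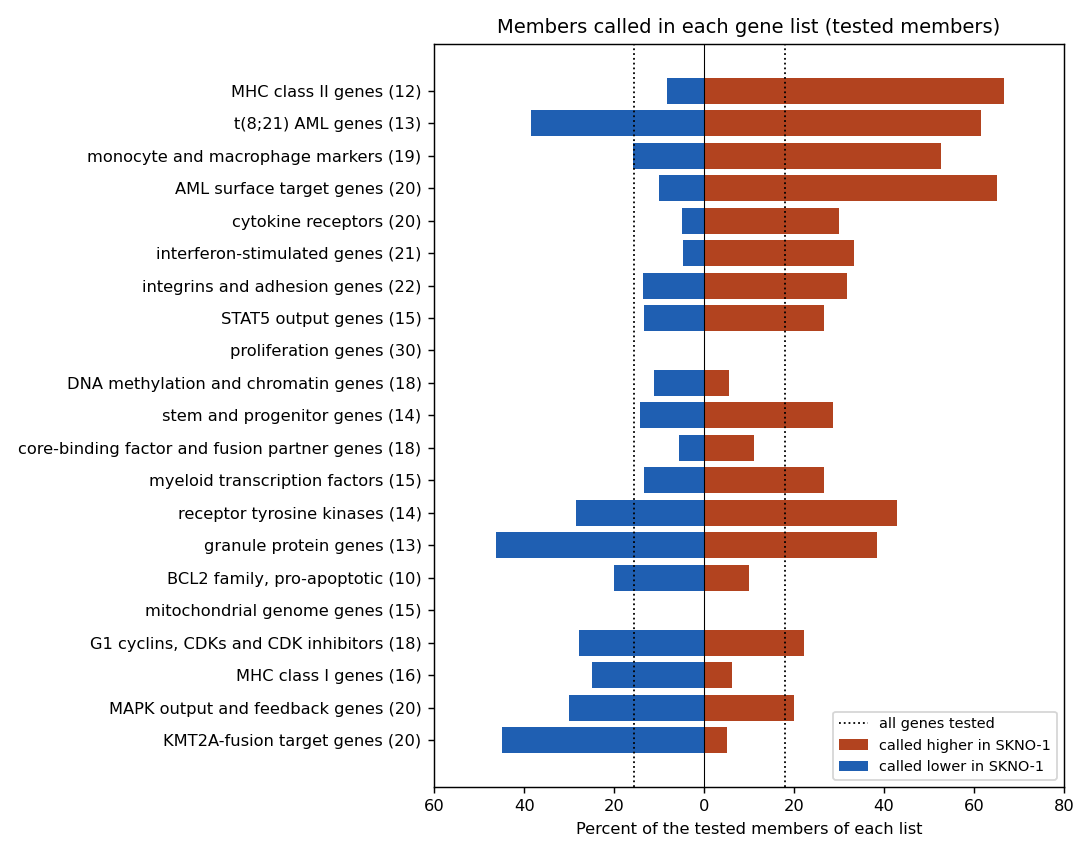
Percent of the tested members called higher (red, to the right) and lower (blue, to the left) in SKNO-1 for 21 lists with at least 10 tested members, with the number tested in brackets, ordered by median difference. Dotted lines mark all genes tested, 18% and 15.5%, and proliferation and mitochondrial genes had no call.

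Of 17 myeloid transcription factors, 15 were tested, 4 were called higher, 2 lower and 9 were not called. SPI1, which encodes PU.1, was at 328 ± 19.997 and 214 ± 5.02 CPM, and CEBPA, the granulocyte factor, at 97.8 ± 2.60 and 131 ± 5.56 CPM. GFI1, IRF8, CEBPD, NR4A1 and ID2 were also under 2-fold. IRF4, a factor of dendritic and plasma cells, was at 101, 101 and 99.9 CPM in SKNO-1 and 0.722, 1.10 and 0.613 CPM in Molm-14 (log2 difference of 6.95, SE 0.17, adjusted p = 2.2e-11). CEBPE, a factor of late granulocytes, was at 11.5, 11.4 and 9.56 CPM in SKNO-1 and 0.333, 0.404 and 0.613 CPM in Molm-14. KLF4 and CEBPB were 2.42-fold and 2.02-fold higher. ZNF521 (above) and BATF3, a dendritic cell factor (9.69-fold), were lower in SKNO-1.

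Granule proteins differed gene by gene. Of 18 listed, 13 were tested, 5 were called higher and 6 lower. MPO, myeloperoxidase, was at 315, 316 and 321 CPM in SKNO-1 and 3.17, 3.17 and 4.40 CPM in Molm-14 (log2 difference of 6.48, SE 0.11, adjusted p = 1.5e-12). MS4A3, a marker of granulocyte-monocyte progenitors, was at 93.6, 94.5 and 95.7 CPM in SKNO-1 and 1.11, 0.923 and 1.28 CPM in Molm-14. Both were below 5 CPM in every Molm-14 library. PRTN3, proteinase 3, was 3.85-fold higher in SKNO-1, and ELANE, neutrophil elastase, was 2.99-fold lower, at 135, 151 and 163 CPM in SKNO-1 and 438, 453 and 452 CPM in Molm-14. AZU1 (2.14-fold), CTSG (5.40-fold), RNASE2 (9.88-fold), RNASE3 (4.91-fold) and CST7 (11.8-fold) were lower. The median of -0.19 turned to 0.26 under quantile normalization. Secondary granule genes were not read, with LTF and CAMP at 1 read or fewer in each library.

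Of 28 monocyte and macrophage markers, 19 were tested, 10 were called higher and 3 lower, with a median of 1.97. MS4A6A, a membrane protein of monocytes, was at 220.4, 213 and 216 CPM in SKNO-1 and 9.95, 11.995 and 10.7 CPM in Molm-14 (log2 difference of 4.32, SE 0.063, adjusted p = 7.5e-13). LILRB1 and LILRB4, inhibitory receptors of monocytes, were 35.4-fold and 3.92-fold higher. CD4 was at 487, 498 and 497 CPM in SKNO-1 and 118, 122 and 126 CPM in Molm-14, CCR2 was 12.8-fold and TLR2 16.4-fold higher. ITGAX, TLR4, CSF1R and SIGLEC1 were the other members called higher besides these. S100A8 and S100A9, the calprotectin subunits, went the other way, with S100A9 at 27.5, 27.7 and 27.5 CPM in Molm-14 and 0.692, 0.505 and 0.424 CPM in SKNO-1. CX3CR1 was 3.84-fold lower. LYZ, lysozyme, was at 119.6 ± 0.223 and 111 ± 1.33 CPM and was not called. CD14, FCN1 and S100A12 had 4 reads or fewer in every library.

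Of 23 stem and progenitor genes, 14 were tested, 4 were called higher and 2 lower. ERG, an ETS factor of blood stem cells, was at 8.17, 6.65 and 6.92 CPM in SKNO-1 with no read in Molm-14. GATA2 was 3.77-fold higher, at 13.4, 13.1 and 14.1 CPM in SKNO-1 and 3.61, 3.58 and 3.57 CPM in Molm-14. CD200 and SPINT2 were higher at low levels. MN1, a coactivator, was called lower at a low level (0.835 against 1.65 CPM). DNMT3B, a de novo DNA methyltransferase, was at 17.5, 15.2 and 15.3 CPM in SKNO-1 and 64.5, 64.5 and 67.6 CPM in Molm-14 (log2 difference of -2.03, SE 0.063, adjusted p = 1.3e-10). PROM1, MECOM and HLF had 3 reads or fewer in every library. LMO2, LYL1, SOX4, MYB and MSI2 were under 2-fold.

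Markers of other lineages were summed by list. B cell markers summed to 34.7 to 35.5 CPM in SKNO-1 and 18.9 to 20.9 CPM in Molm-14. Of 12 listed, 7 were tested, 5 called higher and 1 lower. Members called higher included CD79A and CD79B, IGLL1, a surrogate light chain of early B cells (9.17 ± 0.394 CPM, with 0, 1 and 0 reads in Molm-14), and BLK, a B cell kinase (6.06 ± 0.7 CPM, no read in Molm-14). MS4A1, VPREB1 and POU2AF1 had 1 read or fewer in every library. T and NK markers summed to 34.5 to 38.3 and 55.8 to 56.6 CPM, with 4 of 14 tested, 1 called higher and 2 lower. CD7, which AML blasts can also show, was at 4.94, 5.28 and 5.84 CPM in SKNO-1 and had 0, 0 and 1 reads in Molm-14, and IL32 was 4.83-fold lower. TRAC, the T cell receptor alpha constant segment, was at 13.7, 12.9 and 11.4 CPM in Molm-14 and 0.277, 0.138 and 0.141 CPM in SKNO-1, while CD2, CD3D, CD3E and CD3G had 1 read or fewer in every library.

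Mast cell, basophil and eosinophil markers summed to 27.6 to 30.1 CPM in SKNO-1 and 5.06 to 5.18 CPM in Molm-14. The 4 of 14 that were tested were all called higher, namely SIGLEC6 (9.22 ± 1.10 CPM, with 1, 3 and 5 reads in Molm-14), GATA2, IL5RA and TPSB2, whose reads may be shared with TPSAB1. HDC, CPA3 and CMA1 had 1 read or fewer in each library. Erythroid and megakaryocyte markers summed to 377 to 395 and 329.7 to 345 CPM, most of it the transferrin receptor TFRC, and 6 of 20 were tested. ITGA2B, the platelet integrin chain, was at 16.7, 17.2 and 17.99 CPM in SKNO-1 and 0.778, 0.519 and 0.39 CPM in Molm-14, KLF1 was also higher, and NFE2 was 3.03-fold lower. HBA1, HBA2 and PF4 had no read in any library. Epithelial and stromal markers summed to 41.9 to 44.9 and 23.5 to 32.5 CPM, with KRT8 and PDGFRB called higher of 5 tested. CDH1 had no read and EPCAM 1 read at most. The part of cells of these other types in any difference was not tested.

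Of 16 genes of antigen presentation by MHC class II, 12 were tested, 8 were called higher and 1 lower in SKNO-1, with a median of 2.19. CIITA, the transactivator of class II genes, was at 41.01, 41.99 and 36.6 CPM in SKNO-1 and 1.56, 1.44 and 1.00 CPM in Molm-14 (log2 difference of 4.89, SE 0.15, adjusted p = 1.5e-10). HLA-DRA was at 17.4, 18.1 and 19.8 CPM in SKNO-1 and 0.444, 0.231 and 0.668 CPM in Molm-14, a ratio of 40.9 (95% interval 27.4 to 64.2). CD74, the invariant chain, was 3.16-fold higher, at 474, 497 and 515 CPM in SKNO-1 and 153, 158 and 158 CPM in Molm-14. HLA-DRB1, HLA-DRB5, HLA-DPA1, HLA-DQB1 and HLA-DMA were also higher, and the division of reads between HLA-DRB1 and HLA-DRB5 is uncertain. HLA-DOB was lower, at 0.695 ± 0.332 against 11.1 ± 0.999 CPM. The promoter factors RFX5, RFXAP and RFXANK were under 2-fold.

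Of 16 genes of presentation by MHC class I, all tested, 1 was called higher, 4 lower and 11 were not called, with a median of -0.53. The members called lower were TAP1, a peptide transporter chain, the immunoproteasome subunits PSMB8 and PSMB9, and the trimming peptidase ERAP1. PSMB8 was at 50.5, 51.03 and 55.5 CPM in SKNO-1 and 122, 119 and 134 CPM in Molm-14 (log2 difference of -1.26, SE 0.054, adjusted p = 1.6e-09). HLA-B, HLA-C and B2M differed by -0.58, -0.97 and -0.48 on the log2 scale. HLA-F was the member called higher (10.3-fold). HLA-B, HLA-C, HLA-F, TAP1, PSMB8 and PSMB9 lie on chromosome 6, whose genes had a median of -0.64 (below). The class II genes HLA-DRA (5.39) and HLA-DRB1 (6.64), both called higher, lie on that chromosome too. No run of lower neighbouring genes (below) covered chr6:26056428-44258166, where HLA-F, PSMB8, PSMB9, HLA-DRA and HLA-DRB1 lie.

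Interferon-stimulated genes were mixed, with 7 of 21 tested called higher, 1 lower and a median of 0.55. IFI6 was at 18.8, 19.9 and 21.9 CPM in SKNO-1 and 2.83, 2.19 and 2.23 CPM in Molm-14 (log2 difference of 3.05, SE 0.13, adjusted p = 1.2e-09). OAS2, an RNA sensor, was 6.25-fold, MX2 3.31-fold and RSAD2 3.79-fold higher. IFIT1 was the member called lower, and ISG15, IRF7 and XAF1 were under 2-fold. MX1 did not pass the filter.

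Of 24 surface proteins that are targets in AML, 20 were tested, 13 were called higher and 2 lower, with a median of 1.87. CD33 was at 153, 159.8 and 161 CPM in SKNO-1 and 47.6, 45.3 and 46.2 CPM in Molm-14 (log2 difference of 1.77, SE 0.04, adjusted p = 1.1e-11). CD38 was 10.7-fold and ADGRE5, which encodes CD97, 2.68-fold higher. CD96 was at 16.4, 16.8 and 17.04 CPM in SKNO-1 and had 0, 0 and 2 reads in Molm-14, and SIGLEC7 was at 6.63 ± 0.621 CPM with 0, 1 and 0 reads. CD70 was lower, at 67.7, 72.3 and 79.2 CPM in SKNO-1 and 330.4, 328 and 339 CPM in Molm-14 (log2 difference of -2.19, SE 0.052, adjusted p = 1.6e-11), as was ADGRE2 (4.01-fold). CD47 and CD44 were under 2-fold. From the list for the labelled cell type, ANPEP (CD13) was at 24.5, 26.1 and 23.7 CPM in SKNO-1 and had 1, 1 and 2 reads in Molm-14, and PTPRC (CD45) was 2.43-fold lower in SKNO-1. All 9 genes of that list passed the filter.

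Of 25 integrin and adhesion genes, 22 were tested, 7 were called higher and 3 lower. ITGAL, the alpha chain of LFA-1, was at 1435, 1459 and 1460.2 CPM in SKNO-1 and 377, 373 and 383 CPM in Molm-14 (log2 difference of 1.94, SE 0.033, adjusted p = 1.6e-12), while its partner ITGB2 was 1.53-fold lower and not called. ITGB7 was 11.9-fold, ITGA6 9.08-fold and ITGAX 4.09-fold higher. ITGB5 was at 11.1, 11.98 and 11.7 CPM in SKNO-1 and had 5, 1 and 2 reads in Molm-14. ITGB1, the common beta chain, was 2.25-fold lower in SKNO-1. ITGA4 and ITGA5 were under 2-fold.

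None of 30 proliferation genes, all tested, was called in either direction, and their median was 0.06. With limma, 20 of the 30 passed an adjusted p under 0.05 at less than 2-fold, beside 83% of all genes tested at any fold. Their differences ran from -0.91 for the replication helicase subunit MCM3 to 0.74 for MCM5. MKI67, the Ki-67 antigen, was at 276 ± 46.2 CPM in SKNO-1 and 325 ± 18.3 CPM in Molm-14. Among 18 genes listed for G1 control, 4 were called higher and 5 lower, counting MTAP, a neighbour of CDKN2A and not itself a G1 regulator. CDKN1A, which encodes the inhibitor p21, was at 95.7, 105 and 99.6 CPM in SKNO-1 and 589, 623 and 633 CPM in Molm-14 (log2 difference of -2.62, SE 0.043, adjusted p = 1.5e-12). Besides CDKN2A, CDKN2B, MTAP and CCND1 (above), CDKN1C (p57) was 3.18-fold higher, CDKN2C (p18) 2.93-fold lower and CCNE2 2.31-fold lower. RB1, the retinoblastoma protein, was at 132, 126 and 119 CPM in SKNO-1 and 253, 258 and 275 CPM in Molm-14 (log2 difference of -1.06, SE 0.047, adjusted p = 2.2e-09), and it lies on chromosome 13, whose genes were lower as a whole (below).

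BCL2 family genes were mostly under 2-fold. BCL2 was at 63.5 ± 2.38 and 74.4 ± 3.62 CPM, MCL1 at 270.0 ± 3.94 and 358 ± 2.63 CPM, and BCL2L1 was 1.66-fold higher in SKNO-1. BCL2A1 was the survival member called lower of 5 tested, at 1.75, 1.42 and 1.51 CPM in SKNO-1 and 7.33, 8.36 and 7.97 CPM in Molm-14. Of 10 pro-apoptotic members tested, BMF was called higher, at 171, 174 and 179.6 CPM in SKNO-1 and 64.01, 67.9 and 68.5 CPM in Molm-14 (log2 difference of 1.39, SE 0.04, adjusted p = 7.0e-11). BIK was 2.54-fold lower, and HRK was at 1.83, 2.54 and 2.01 CPM in Molm-14 with no read in SKNO-1.

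Of 18 DNA methylation and chromatin genes, 1 was called higher, 2 lower and 15 were not called. TET1, a 5-methylcytosine oxidase, was at 25.9, 23.3 and 19.5 CPM in SKNO-1 and 3.44, 3.17 and 2.51 CPM in Molm-14 (log2 difference of 2.90, SE 0.14, adjusted p = 4.9e-09). BMI1, a Polycomb subunit that represses the CDKN2A locus, was at 28.3, 26.1 and 26.9 CPM in SKNO-1 and 346, 332 and 336 CPM in Molm-14 (log2 difference of -3.64, SE 0.041, adjusted p = 1.4e-13). DNMT3B (above) was the other member called lower. DNMT1 was at 287, 277 and 270.1 CPM in SKNO-1 and 269.9, 277 and 286 CPM in Molm-14, and TET2, DNMT3A and EED differed by 0.10, 0.14 and -0.11 on the log2 scale. The 15 genes of the mitochondrial genome had no call, and their median of -0.43 turned to 0.13 under quantile normalization.

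Differences of neighbouring genes were not centred on 0 in every chromosome. Over 10617 protein-coding genes with at least 5 CPM in either line, the median log2 difference was -0.09. It was -0.89 for the 193 genes of chromosome 13, of which 90.2% were below 0, -0.64 for the 529 genes of chromosome 6 and -0.55 for the 414 genes of chromosome 10. Chromosome 22 had a median of 0.34 and chromosome 19 a median of 0.27. FLT3 (-0.92), RB1 (-1.06) and SPRY2 (-2.99) lie on chromosome 13. CDKN1A, HDAC2, HLA-B, HLA-C, TAP1 and PSMB8 lie on chromosome 6, and RET and BMI1 on chromosome 10. HLA-F, HLA-DRA and PIM1, all called higher in SKNO-1, lie on chromosome 6 too. HDAC2 lies in a run of lower genes on chromosome 6 (IBTK to HBS1L, below). CDKN1A, PSMB8, HLA-F, HLA-DRA and PIM1 lie in chr6:26056428-44258166, which no such run covered. How much of a single gene's difference goes with that of its neighbours was not tested.

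**Figure D4:**
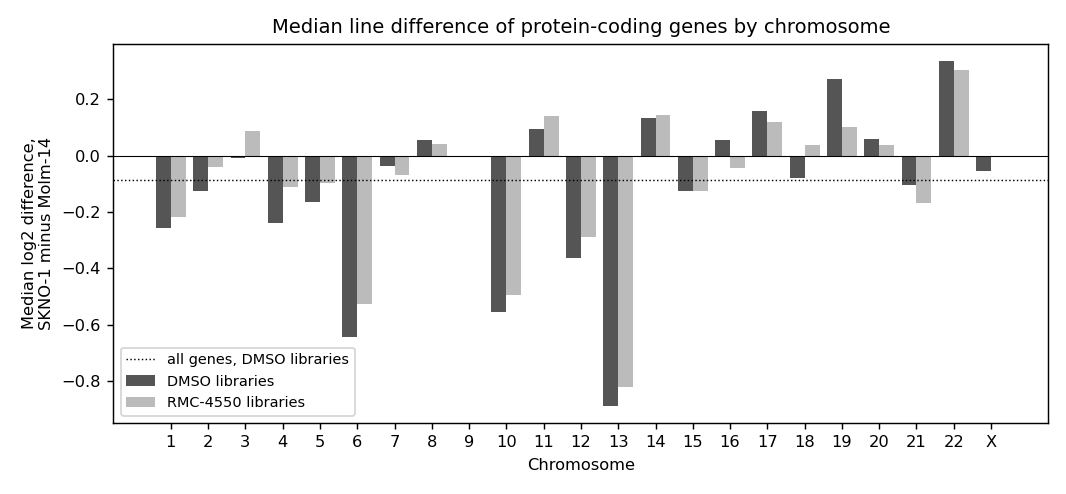
Median log2 difference, SKNO-1 minus Molm-14, of protein-coding genes with at least 5 CPM in either line, by chromosome, with dark bars for the DMSO libraries and light bars for the RMC-4550 libraries. Chromosomes 6, 10 and 13 had the lowest medians in both, and the dotted line is the median over all 10617 genes with DMSO.

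The same contrast was made in the 6 libraries given RMC-4550, which share no library with the DMSO contrast but include the response to the drug. Of 15263 genes tested there, 2817 (18.5%) were called higher and 2541 (16.6%) lower in SKNO-1. Of the 2661 genes called higher with DMSO, 2561 were also tested with the drug, 2116 of these (82.6%) had the same call and 2524 (98.6%) the same sign. Of the 2296 called lower, 2179 were tested, 1777 (81.6%) had the same call and 2166 (99.4%) the same sign. A library of this contrast stood apart, replicate 2 of Molm-14 with RMC-4550, with 14.99% of reads in mitochondrial genes. Without it, 2783 genes were called higher and 2492 lower. Of the 36 genes read in SKNO-1 only, 23 met both conditions with the drug, and of the 18 read in Molm-14 only, 7 did.

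Genes that mark the lines or respond to the pathway were also read with the drug. RUNX1T1 was at 11.9, 12.5 and 10.9 CPM in treated SKNO-1 and had no read in treated Molm-14. FLT3 was at 486, 452 and 458 CPM in treated SKNO-1 and 597, 484 and 586 CPM in treated Molm-14, a log2 difference of -0.25 against -0.92 with DMSO. HLA-DRA was at 120.2, 123 and 132 CPM in treated SKNO-1 and 1.37, 0.961 and 1.64 CPM in treated Molm-14, both above their DMSO values. SPRY4, the MAPK feedback gene, was at 0.383, 0.897 and 1.19 CPM in treated Molm-14, below its DMSO libraries, and had 1, 0 and 0 reads in treated SKNO-1. HOXA9 was at 60.98, 61.3 and 64.8 CPM in treated SKNO-1 and 149.7, 130.2 and 155 CPM in treated Molm-14, and CDKN1A at 81.8, 92.1 and 86.5 CPM in treated SKNO-1 and 912, 545 and 861 CPM in treated Molm-14. Some named genes called with DMSO were not called with the drug. The log2 difference of BMF was 1.39 with DMSO and -0.27 with the drug, and that of CDKN1C 1.66 and -0.53. RUNX3 (0.68 with the drug) and TNFRSF1B (0.27) were among the others. Whether these differences changed with the drug was not tested.

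**Figure D5:**
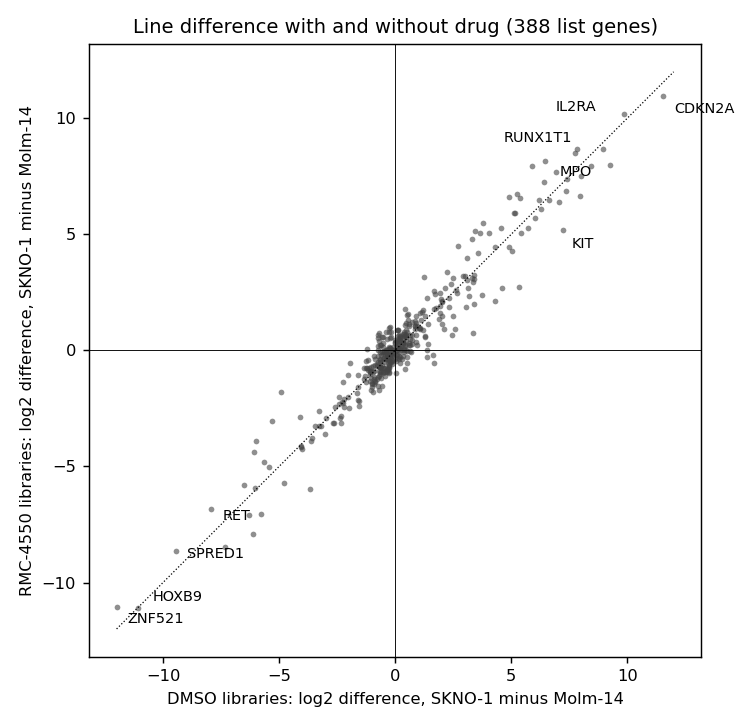
Log2 difference, SKNO-1 minus Molm-14, of the 388 list genes tested in both contrasts, with DMSO on the x axis and with RMC-4550 on the y axis. The dotted line marks equal differences, and 331 of the 388 genes had the same sign in both.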

How the data were processed

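RNA-seq of 18 libraries, with mRNA captured by oligo(dT) per the labels, was deposited as 1 table of log2 values, which the authors made, per the submitters' processing notes, with FastQC, STAR on GRCh38 and limma. The counting program, its strand setting and the annotation are not given in the sources used here. The deposited log2 values are the log2 of reads plus 0.5 per 1 000 000 reads of a scaled library, so whole reads and CPM were recovered from them. Symbols and coordinates (GENCODE 29) were matched for 40069 of 40184 gene IDs. The 3 SKNO-1 and 3 Molm-14 libraries with DMSO were fitted on the deposited values with limma 3.58.1 (R 4.3.3, moderated test with a mean-variance trend, Benjamini-Hochberg adjustment, two-sided). The limma call, and not the other steps, was also run on simulated reads. Python 3.11.15, pandas 2.3.3 and matplotlib 3.10.9 made summaries and figures.

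Named genes were KIT, FLT3 and RUNX1T1, up to 4 called members of each list by size of difference (mean of at least 5 CPM in the higher line), the 10 widest differences in each direction (at least 20 CPM), and the 5 of highest level among genes read in 1 line only. Other list members account for each list, and genes without a symbol or that could tell of a person were left out. Members and lists were chosen with earlier results of these data known. Alternatives covered scale, filter, normalization, samples in the fit, variance model, replicate block, fold threshold and leaving out each library. Replicate numbers do not pair the libraries: deviations of same-numbered DMSO libraries correlated at -0.02061 to -0.001634. Values of a few genes and of 1 list are not reported here.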

Additional observations from a re-analysis of the deposited data

Results flagged for a closer look

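In the 4 genes given here, SKNO-1 and Molm-14 differed in opposite directions with DMSO and with RMC-4550, and the groups did not overlap in either setting. The difference between the settings was not tested. All 4 were chosen because their calls had opposite signs. With DMSO, all 4 were under 4 CPM in every library of both lines. Of the 2561 genes called higher with DMSO and also tested with the drug, 4 had the opposite call. Of the 2179 called lower, 1 did. BAIAP3, a regulator of vesicle traffic, had a log2 difference (SKNO-1 minus Molm-14) of 1.05 with DMSO and -2.31 with RMC-4550. Its Molm-14 libraries were at 1.11, 1.44 and 1.504 CPM with DMSO and at 13.5, 19.02 and 16.5 CPM with the drug. UNC13A, a synaptic vesicle priming protein, had -1.26 with DMSO and 1.44 with RMC-4550, all at under 4 CPM. JAM2, a junctional adhesion protein, had 1.01 with DMSO and -1.07 with RMC-4550. LUCAT1, annotated as an antisense transcript, had 1.03 with DMSO and -1.54 with RMC-4550.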

How the results depend on the processing

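The counts of calls moved most with the filter and the fold limit. With DMSO, genes called higher and lower in SKNO-1 numbered 5122 and 3527 with no filter, 1244 and 1506 with a mean of at least 5 CPM, 5902 and 6371 with no fold threshold, and 1497 and 834 with a 4-fold threshold. With RMC-4550, genes called higher numbered 4706 with no filter, and those called higher and lower 1425 and 1638 with a mean of at least 5 CPM, 1790 and 1276 with limma's test against a 2-fold threshold, 4384 and 4785 with no fold threshold, and 1597 and 991 with a 4-fold threshold. Leaving out 1 library gave 2626 to 2703 higher and 2275 to 2321 lower with DMSO, and 2666 to 2986 higher and 2417 to 2637 lower with RMC-4550. With DMSO, median-ratio scaling gave 2750 higher and 2197 lower, and quantile normalization 2447 and 2571. The replicate block gave 2661 and 2296 with DMSO and 2818 and 2530 with RMC-4550. Of 1699 alternative values of the 107 named genes, 1698 kept direction and call, and HDAC2 against a 2-fold threshold did not (log2 difference -1.09). Those values leave out the settings with no fold threshold and with a 4-fold threshold. Named genes under 4-fold, such as BMF (2.62-fold), would lose their call at 4-fold, and FLT3 would be called lower with no fold threshold. At a mean of at least 5 CPM, 94 of the 107 genes had a value, and the medians of the t(8;21), stem, B cell, epithelial, HOXB and BCL2 survival lists changed sign (t(8;21) to -2.25, B cell to -0.80). The causes were not tested. Replicate precision is limited by 3 libraries a group.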

Other observations

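Runs of neighbouring genes that differed in 1 direction were longest on a few chromosomes, as a description with no test. Windows of 25 protein-coding genes with at least 5 CPM in either line were joined where the median log2 difference (SKNO-1 minus Molm-14) was at least 0.8 from 0. On chromosome 13, a run of 120 genes from UFM1 to ARHGEF7 (chr13:38349849-111305737) had a median of -0.90 with DMSO and -0.83 with RMC-4550. On chromosome 6, 109 genes from IBTK to HBS1L (chr6:82169983-135103056) had medians of -0.97 and -0.88. On chromosome X, 75 genes from MOSPD1 to TMLHE (chrX:134887626-155669944) had medians of -1.38 and -1.24. Runs higher in SKNO-1 were 85 genes from SNAPC1 to SLIRP on chromosome 14 (chr14:61762357-77761104), with medians of 1.00 and 0.96, and 98 genes from NAPA to ZNF600 on chromosome 19 (chr19:47487637-52786807), with medians of 0.93 and 0.87. FOS lies on chromosome 14.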
